A study of Homo sapiens with 6 samples.

Results

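The genes of the Wnt pathway were examined in RNA-seq of A375 cells, an established human melanoma cell line. The members were chosen by gene name, at a time when earlier results of these data, the changes of WNT5A and WNT7A among them, were already known. They are the Wnt ligands (WNT), the Frizzled (FZD) and LGR receptors, the LRP5 and LRP6 co-receptors, the R-spondins (RSPO), the secreted inhibitors of the DKK and SFRP families, the Dishevelled proteins DVL1 to DVL3, and 16 further named genes for ligand secretion, the beta-catenin destruction complex, the TCF/LEF factors and feedback inhibitors. Of the 20851 gene names in the deposited table, 50 were members, and a further 15 genes of these families were not analysed here, among them WNT3A, WNT11 and LRP6. The control group A375neg (3 libraries) had been made with the CRISPR/Cas9 system and a guide RNA that targets no human sequence, and its labels call it a GFP control. The group A375RIPK4.KO (3 libraries) had been made with the same system and a lentiviral guide RNA against RIPK4, and both groups were grown in RPMI-1640 with serum. The 3 A375RIPK4.KO libraries came from 1 clone, so the loss of RIPK4 and other features of that clone cannot be told apart in any value below. The same holds for anything that goes with the GFP label, which only the control group carries. The design calls the replicates biological without saying how they were separated, so p-values measure only the spread between these libraries.

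Wnt ligands are secreted lipid-modified proteins. In the canonical branch a ligand binds a Frizzled receptor together with LRP5 or LRP6, Dishevelled is recruited, the destruction complex of AXIN1, APC, GSK3B and CSNK1A1 is inhibited, and beta-catenin (CTNNB1) accumulates and acts with the TCF/LEF factors on target genes. In the non-canonical branches a ligand such as WNT5A acts through Frizzled and co-receptors of the ROR and RYK type on planar cell polarity, small GTPases, the kinase JNK or calcium signals. RIPK4 is a serine/threonine kinase described as acting on Dishevelled. In melanoma WNT5A is known for its link with cell motility and invasion.

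Raw counts assigned to genes ranged from 21882863 to 26694140 per library. A gene with 0 counts could still have had 3 of them, a floor of 0.112 to 0.137 CPM (CPM being counts scaled to the library total) that covers counting error only. RIPK4 itself had 319, 368 and 404 raw counts in A375neg and 42, 51 and 61 in A375RIPK4.KO, which is 6.45-fold lower (adjusted p = 1.01e-05). Of the melanoma markers, SOX10 was abundant, with 9128 ± 359 normalized counts (SD, n = 3) in A375neg and 7962 ± 185 in A375RIPK4.KO, while MLANA, TYR and DCT were not analysed here, TYRP1 did not pass the filter on low counts, and PMEL was low in both groups (means of 14.5 and 11.7). The summed level of the 6 melanoma markers listed was 387 to 418 CPM in A375neg and 333 to 350 in A375RIPK4.KO. Of these, S100A1 and S100B were called lower (1.81-fold and 1.85-fold), in 2 of 11 and 8 of 12 alternatives respectively (here and below, alternatives are other fits that keep the 1.5-fold limit and in which the gene was tested, at most 12). The sum of 3 keratinocyte markers was 71.5 to 75.2 and 53.3 to 66.2, in which KRT14 was 3.35-fold lower (called in all 12 alternatives), KRT10 stood at a log2 fold change of −0.01 and KRT5 was not tested. That of 3 endothelial markers was 1.30 to 1.47 and 0.248 to 0.490, in which PECAM1 was called lower (called in all 11 alternatives), with 21, 23 and 24 raw counts in A375neg and 4, 5 and 5, close to the floor, in A375RIPK4.KO, and VWF and CDH5 not tested. The sum of 3 leukocyte markers was 43.6 to 49.9 and 47.8 to 51.3, nearly all of it CD68, while LYZ fell from 36 to 38 raw counts to 0 to 13 (called in 7 of 11 alternatives) and PTPRC had at most 3 counts. That of 4 fibroblast markers was 4.92 to 6.11 and 4.17 to 5.57, with no gene called and DCN not tested. The groups did not overlap for COL1A1 (2.54-fold lower, adjusted p = 0.177), LUM (2.61-fold lower, adjusted p = 0.0552) or PDGFRA (log2 fold change 0.27, adjusted p = 0.374). The part of all these markers in the results below was not tested.

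After TMM normalization, 14443 genes were tested by the quasi-likelihood method of edgeR, and p-values were adjusted over all of them by Benjamini-Hochberg. Below, log2FC is the log2 fold change of A375RIPK4.KO over A375neg and SE its standard error. A gene was called changed at an adjusted p under 0.05 together with a fold change of at least 1.5. Of the 50 members, 39 passed the filter on low counts, and 5 of these (AXIN2, DKK2, LGR6, WNT7A and WNT7B) had a mean of under 10 raw counts in 1 of the groups only. WNT7A and LGR6 could pass this filter only through the group where they were high, and both are in the counts below. Called were 7 members, 4 higher (WNT7A, WNT10B, FZD2 and DKK3) and 3 lower (WNT5A, PORCN and LGR6) in A375RIPK4.KO, which is 17.9% of the members tested beside 9.04% of all genes tested (4.39% higher and 4.65% lower). Since the members were chosen with WNT5A and WNT7A known to have changed, nothing is read from the difference between these shares. With no limit on fold, 10 members had an adjusted p under 0.05 (25.6%, beside 16.6% of all genes tested, 8.4% higher and 8.24% lower), 7 higher and 3 lower. The added members were LRP5, DKK1 and AXIN1, all higher. For 21 of the 39 members the groups did not overlap in normalized counts (53.8%, beside 36.5% of all genes tested). The median log2 fold change of the members was 0.11, and that of all genes was −0.00. The number of members called was 5 to 7 under the alternatives that kept the 1.5-fold limit, and 3 (WNT5A, WNT7A and LGR6) at a limit of 2-fold, which 5.49% of all genes passed. DESeq2 called 6 members and 8.07% of all genes it tested.

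**Figure D1:**
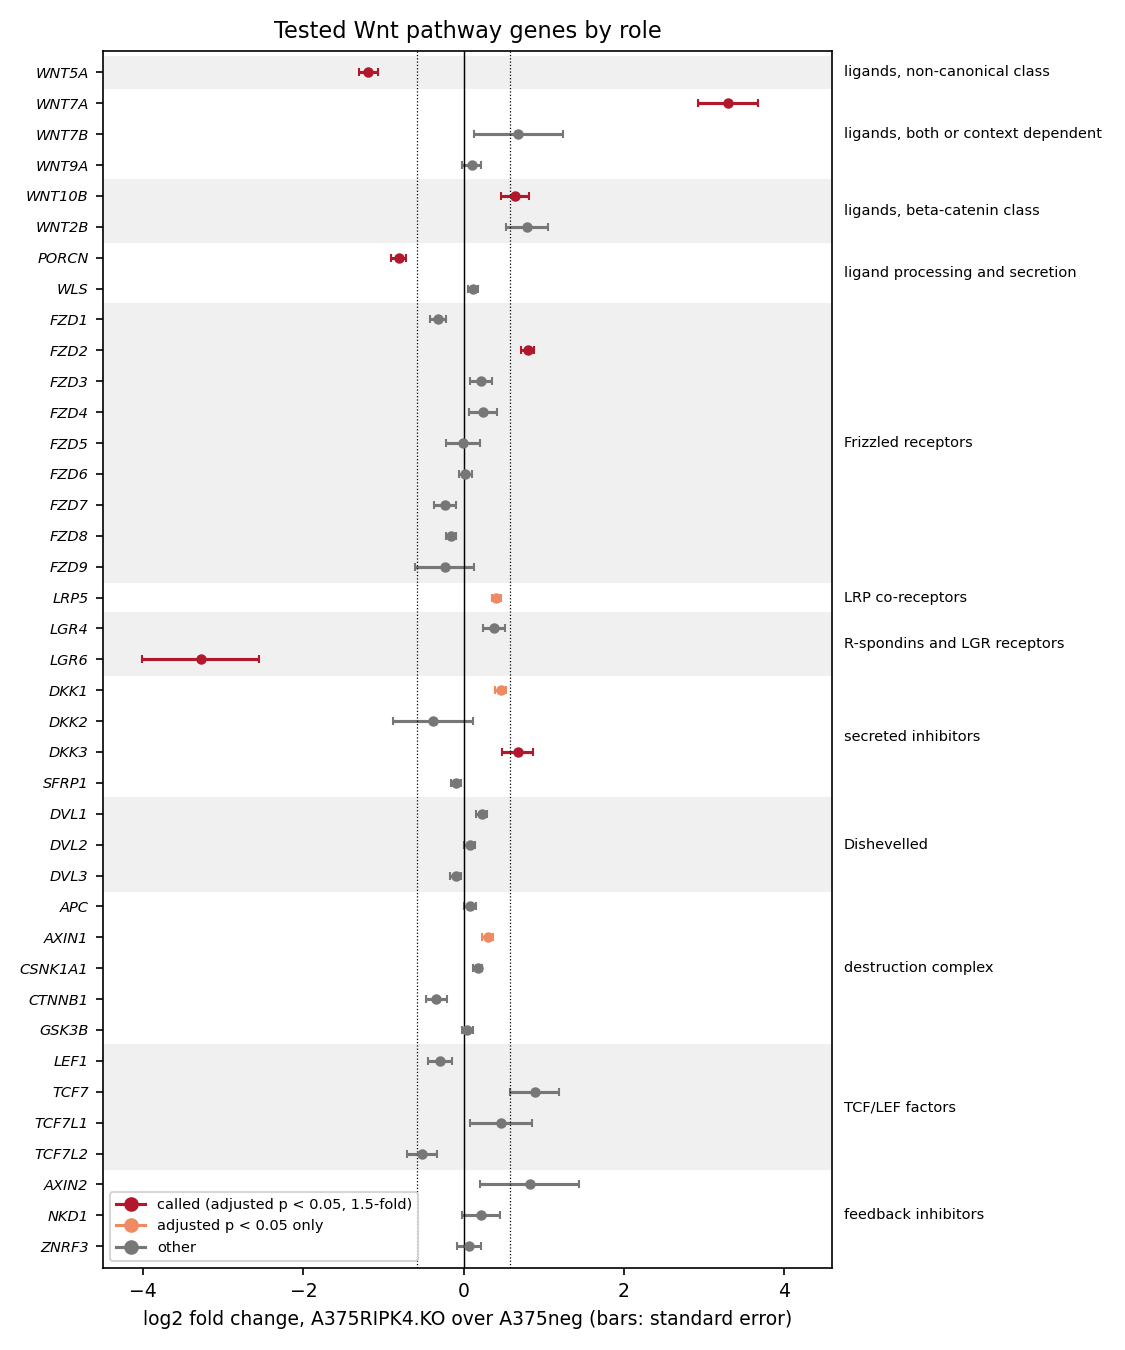
Log2 fold change of each of the 39 tested Wnt pathway genes, A375RIPK4.KO over A375neg (x axis; points are the fitted values, bars the standard error, dotted lines the 1.5-fold limits), grouped by role. WNT7A at 3.30 and LGR6 at −3.28 lie farthest from 0, and the 3 Dishevelled genes lie inside the limits, between −0.10 and 0.22.

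The regions before the start sites of WNT5A, WNT7A and PORCN are shown, because these genes act at the ligand step, were called, and have an entry in the promoter table. FZD2, WNT10B and DKK3 are named only. The sequences are the 250 bases before each start site, from RefSeq (GRCh38.p14), 5′ to 3′ on the gene's strand, with each CG dinucleotide in capitals. Those of WNT5A lie on the minus strand at chr3:55487307-55487556 (start 1) and chr3:55481399-55481648 (start 2), both inside the span of the gene, which has further transcripts that start upstream. That of WNT7A lies on the minus strand at chr3:13880072-13880321, directly before the gene. That of PORCN (start 1) lies on the plus strand at chrX:48508742-48508991, directly before the gene.
WNT5A start 1: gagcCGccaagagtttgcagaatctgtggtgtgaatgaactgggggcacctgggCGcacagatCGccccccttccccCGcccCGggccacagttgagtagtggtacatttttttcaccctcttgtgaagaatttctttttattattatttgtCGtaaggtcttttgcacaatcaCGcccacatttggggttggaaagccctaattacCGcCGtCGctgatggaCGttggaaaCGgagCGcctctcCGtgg
WNT5A start 2: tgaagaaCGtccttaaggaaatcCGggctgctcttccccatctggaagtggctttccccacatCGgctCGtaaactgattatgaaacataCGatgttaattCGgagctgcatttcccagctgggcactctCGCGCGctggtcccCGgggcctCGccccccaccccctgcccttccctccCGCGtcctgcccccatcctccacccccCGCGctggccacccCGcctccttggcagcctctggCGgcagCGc
WNT7A: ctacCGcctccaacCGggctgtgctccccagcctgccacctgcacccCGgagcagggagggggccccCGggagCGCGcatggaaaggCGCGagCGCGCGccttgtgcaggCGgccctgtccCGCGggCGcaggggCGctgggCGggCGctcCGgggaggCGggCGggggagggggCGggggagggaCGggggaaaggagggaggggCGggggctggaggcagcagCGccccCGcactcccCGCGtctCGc
PORCN start 1: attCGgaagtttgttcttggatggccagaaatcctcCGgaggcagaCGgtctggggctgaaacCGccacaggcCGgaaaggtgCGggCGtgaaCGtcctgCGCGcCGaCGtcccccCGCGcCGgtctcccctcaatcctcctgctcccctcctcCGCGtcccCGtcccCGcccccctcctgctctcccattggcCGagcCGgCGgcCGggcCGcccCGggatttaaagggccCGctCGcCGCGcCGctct
The WNT5A regions held 14 and 18 CG dinucleotides and were 52.8% and 64.4% G or C. The WNT7A region held 29 (80.4% G or C), and the PORCN region at start 1 held 30 (70.8%) and that at start 2, which is not shown, 7 (58%), where the median of all 35116 promoters of the table was 11. The letters CTTTGAT or CTTTGAA, which TCF/LEF factors are known to bind, occurred on either strand in 5.94% of all promoters, and in 1 of the 49 promoters of the 36 members matched (2.04%), that of DKK1, 95 bases before its start. The AP-1 letters TGANTCA, searched on both strands, occurred in 6.57% of all promoters and in 2 of the 49 (4.08%), 1 each of CSNK1A1 and RNF43. Neither motif occurred in the 4 regions shown, which says only that these letters are not in these windows.

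Among the ligands, WNT5A fell 2.28-fold in A375RIPK4.KO, WNT7A rose from a few counts and WNT10B rose 1.56-fold. WNT5A (chr3:55465715-55505263, minus strand) is the prototype non-canonical ligand. Its raw counts were 2015, 2216 and 2600 in A375neg and 906, 764 and 1056 in A375RIPK4.KO. All A375neg libraries lay above all A375RIPK4.KO libraries. The normalized count was 2173 ± 252 (SD, n = 3) in A375neg and 953 ± 140 in A375RIPK4.KO (log2FC −1.19, SE 0.12, adjusted p = 0.000182). WNT5A was called in all 12 alternatives, at −1.28 to −1.07. The gene overlaps the antisense gene WNT5A-AS1. The libraries mark strand, but the strand setting of the counting is not given in the sources used here.

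WNT7A (chr3:13816258-13880071, minus strand), a ligand used in both branches depending on the cell, had 6, 5 and 3 raw counts in A375neg and 36, 52 and 41 in A375RIPK4.KO. The groups did not overlap, but the A375neg libraries were close to the limit that a count of 0 allows. The normalized count rose from 4.48 ± 1.58 (SD, n = 3) to 45.1 ± 8.05 (log2FC 3.30, SE 0.38, adjusted p = 0.00039). WNT7A was called in all 11 alternatives that kept it (3.06 to 3.55), and a mean of at least 50 counts removed it. WNT10B (chr12:48965340-48971735, minus strand), a ligand of the canonical branch, had 148, 233 and 178 raw counts in A375neg and 229, 313 and 249 in A375RIPK4.KO. The raw counts of the groups overlapped, but their normalized counts did not. WNT10B rose from 177 ± 34.1 (SD, n = 3) to 276 ± 43.5 normalized counts (log2FC 0.64, SE 0.18, adjusted p = 0.0393). This call was lost without A375neg replicate 1 or 3 and without any A375RIPK4.KO replicate (adjusted p 0.0506 to 0.129 in those fits). The exon position that the table gives lies outside the RefSeq gene for 4 members, WNT10B, WLS, WNT4 and WNT5B, so what was counted under these names is less certain.

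The other ligands tested were not called. WNT9A, of both branches, had a mean of 281 normalized counts in A375neg and 302 in A375RIPK4.KO (log2FC 0.11, adjusted p = 0.60). WNT2B, a canonical ligand, was rarer, with 28, 22 and 26 raw counts in A375neg and 37, 38 and 46 in A375RIPK4.KO (log2FC 0.80, SE 0.26, adjusted p = 0.0710). Its groups did not overlap. WNT7B had 5 to 15 raw counts in A375neg and 10 to 21 in A375RIPK4.KO (log2FC 0.69, adjusted p = 0.453). A further 6 ligands (WNT3, WNT4, WNT5B, WNT8B, WNT10A and WNT16) did not pass the filter, with at most 7 counts in any library. WNT5B, the other non-canonical ligand listed, had 4 counts in 1 A375RIPK4.KO library and 0 in the other five libraries.

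Per kilobase of exon, WNT5A was the most abundant ligand in A375neg, at 12.0 ± 1.39 CPM per kilobase (SD, n = 3), followed by WNT9A at 2.88 ± 0.250 and WNT10B at 2.75 ± 0.529, which did not differ beyond their spread. In A375RIPK4.KO the order was WNT5A (5.25 ± 0.774), WNT10B (4.29 ± 0.674) and WNT9A (3.10 ± 0.195), and the intervals of WNT5A and WNT10B (mean ± SD) overlapped. WNT7A stayed low on this scale, at 0.0399 in A375neg and 0.401 in A375RIPK4.KO. Summed over the 12 ligands listed, the level per length was 17.9 ± 1.63 in A375neg and 13.4 ± 0.129 in A375RIPK4.KO, a ratio of 0.750. WNT5A made up 66.8% ± 2.30 of this sum in A375neg and 39.1% ± 5.42 in A375RIPK4.KO, and WNT10B 15.4% ± 3.17 and 32% ± 5.31. These shares come from the same libraries and were not tested. Bulk RNA cannot tell fewer cells with a transcript from less of it per cell.

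**Figure D2:**
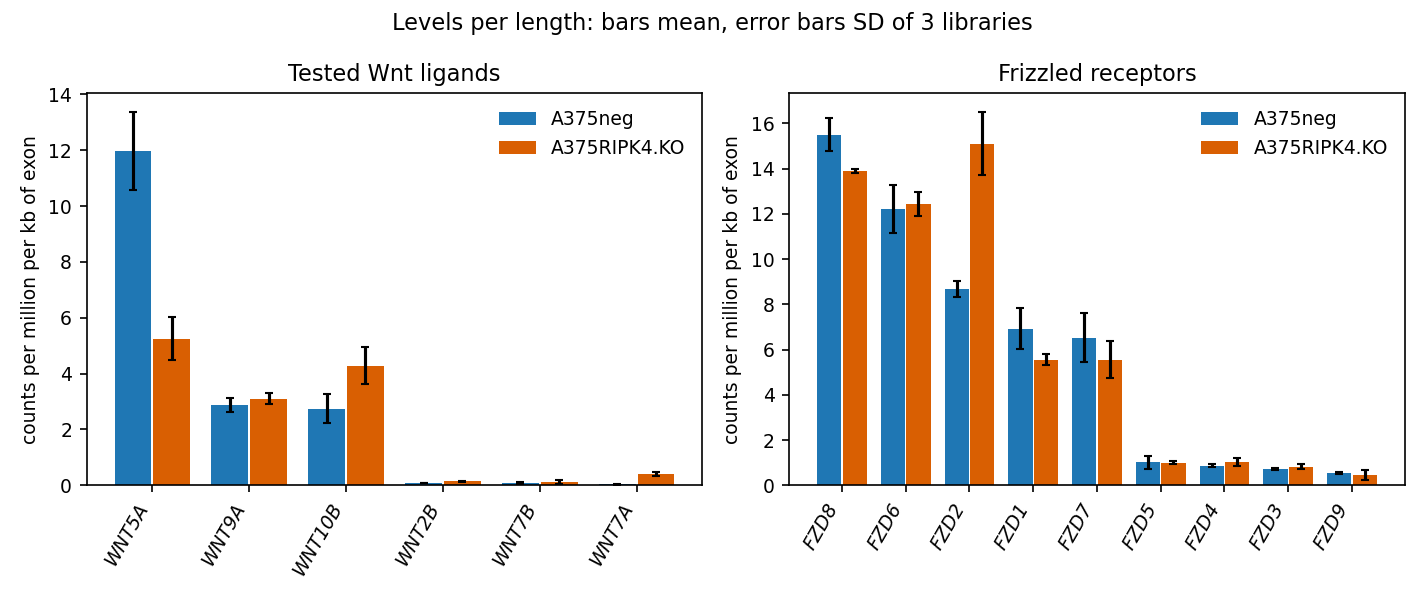
Level of the tested Wnt ligands (left) and Frizzled receptors (right) in CPM per kilobase of exon (y axis, bars the mean and error bars the SD of 3 libraries) in A375neg (blue) and A375RIPK4.KO (orange). WNT5A drops from 12.0 to 5.25 and FZD2 goes from 8.68, below FZD8 and FZD6, to 15.1.

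PORCN and WLS serve every Wnt ligand, and of these PORCN fell. PORCN (chrX:48508992-48520814, plus strand), the membrane enzyme that attaches the lipid to Wnt proteins, had 535, 541 and 515 raw counts in A375neg and 282, 264 and 279 in A375RIPK4.KO. The groups were far apart beside their spread. The normalized count was 507 ± 24.6 (SD, n = 3) and 289 ± 17.1, which is 1.76-fold lower (log2FC −0.81, SE 0.10, adjusted p = 0.000464). PORCN was called in all 12 alternatives at the 1.5-fold limit, at −0.86 to −0.77, and not at a limit of 2-fold. WLS, the carrier that brings the lipid-modified ligand to the cell surface, had 2159, 2396 and 2250 raw counts in A375neg and 2055, 2386 and 2271 in A375RIPK4.KO (log2FC 0.12, adjusted p = 0.252).

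Of the 9 Frizzled receptors, all of which were tested, FZD2 was called higher and none was called lower. FZD2 (chr17:44557484-44561262, plus strand), a receptor that serves WNT5A among other ligands, had 832, 836 and 856 raw counts in A375neg and 1158, 1459 and 1393 in A375RIPK4.KO. All A375RIPK4.KO libraries were higher than all A375neg libraries. The normalized count rose from 804 ± 31.5 (SD, n = 3) to 1400 ± 129, 1.74-fold (log2FC 0.80, SE 0.08, adjusted p = 0.000213), and FZD2 was called in all 12 alternatives at the 1.5-fold limit (0.74 to 0.87) and not at a limit of 2-fold. FZD1 had 1016, 1324 and 1388 raw counts in A375neg and 843, 954 and 915 in A375RIPK4.KO. Its log2FC of −0.32 (SE 0.10) had an adjusted p of 0.0552 and was not called, although the groups did not overlap. Its adjusted p was under 0.05 with DESeq2, with the replicate number as a block, without A375neg replicate 1 and without A375RIPK4.KO replicate 2. The log2FC values of the other seven Frizzled genes ran from −0.23 to 0.25, and the highest of them in A375neg, FZD8, stood at −0.16 (SE 0.06, adjusted p = 0.122), also without overlap.

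Per length, the order of the Frizzled receptors in A375neg was FZD8 (15.5 ± 0.737 CPM per kilobase, SD, n = 3), FZD6 (12.2 ± 1.07), FZD2 (8.68 ± 0.339), FZD1 (6.93 ± 0.896) and FZD7 (6.52 ± 1.09). FZD1 and FZD7 did not differ beyond their spread, and the other four were rare, from 0.544 (FZD9) to 1.01 (FZD5). In A375RIPK4.KO, FZD2 (15.1 ± 1.39) and FZD8 (13.9 ± 0.0787) led, and their intervals overlapped. The share of FZD2 in the summed Frizzled level was 16.4% ± 1.43 in A375neg and 27% ± 2.02 in A375RIPK4.KO, while the sum itself was 53.0 ± 3.68 and 55.8 ± 1.77, a ratio of 1.05.

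The co-receptor LRP5, which is specific to the canonical branch, was higher in A375RIPK4.KO by less than the 1.5-fold limit. It had 1312, 1505 and 1389 raw counts in A375neg and 1580, 1707 and 1800 in A375RIPK4.KO. The normalized counts of 1338 ± 41.8 (SD, n = 3) and 1778 ± 49.1 were well apart (log2FC 0.41, SE 0.06, adjusted p = 0.00162). LRP5 overlaps 2 long non-coding RNA genes. LRP6 was not analysed here.

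LGR receptors bind R-spondins, which raise the response of a cell to Wnt ligands. LGR6 (chr1:202193799-202319761, plus strand) had 29, 20 and 18 raw counts in A375neg and 1, 0 and 5 in A375RIPK4.KO, and fell from 21.5 ± 6.53 (SD, n = 3) to 2.05 ± 2.67 normalized counts. The groups did not overlap, but the fitted log2FC of −3.28 (SE 0.73, adjusted p = 0.0145) rests on 6 counts in A375RIPK4.KO and ran from −5.03 to −2.72 with 1 library left out. The call was lost without A375neg replicate 1 (adjusted p = 0.0595). LGR6 overlaps 4 other annotated genes (non-coding RNAs and a pseudogene), so its few counts may include reads of these. LGR4, the more abundant of the LGR genes, had 233, 269 and 327 raw counts in A375neg and 312, 304 and 364 in A375RIPK4.KO (log2FC 0.38, SE 0.14, adjusted p = 0.0990, and 0.0475 without A375neg replicate 3). LGR5 and RSPO3 had at most 2 counts in any library.

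Of the secreted inhibitors, DKK1 and SFRP1 made up nearly all of the summed level, and DKK3 was called. DKK1 (chr10:52314281-52317657, plus strand), an antagonist of LRP5 and LRP6 and itself a known beta-catenin target, had 3755, 4328 and 4283 raw counts in A375neg and 4659, 5552 and 5314 in A375RIPK4.KO. The normalized count was 3934 ± 159 (SD, n = 3) and 5425 ± 353, without overlap (log2FC 0.46, SE 0.07, adjusted p = 0.0016), which is 1.38-fold and under the limit. DKK3, a divergent member of the family, had 77, 67 and 63 raw counts in A375neg and 96, 109 and 97 in A375RIPK4.KO. It rose from 66.1 ± 9.45 (SD, n = 3) to 106 ± 7.74 normalized counts (log2FC 0.68, SE 0.19, adjusted p = 0.0415), close to the threshold. Only 4 of the 12 alternatives kept this call, and its adjusted p over them was 0.0376 to 0.139. DKK3 lies at chr11:11963036-12009745, minus strand.

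SFRP1, which binds Wnt ligands outside the cell, had 6863, 7558 and 7949 raw counts in A375neg and 5953, 6512 and 6591 in A375RIPK4.KO (log2FC −0.10, SE 0.06, adjusted p = 0.337). DKK2 was rare, with 5 to 17 raw counts (adjusted p = 0.663). SFRP5 did not pass the filter, with 0, 0 and 4 raw counts in A375neg and 16, 5 and 9 in A375RIPK4.KO, and had an adjusted p of 0.112 when tested without it. Per length, DKK1 was at 72.7 CPM per kilobase in A375neg and 100.2 in A375RIPK4.KO, and SFRP1 at 60.9 and 57.0. The share of DKK1 in the summed level of the 5 inhibitors listed was 54.1% ± 0.800 (SD, n = 3) in A375neg and 63.2% ± 1.06 in A375RIPK4.KO, and the sum was 134.3 ± 5.71 and 158.4 ± 7.63, a ratio of 1.18.

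**Figure D3:**
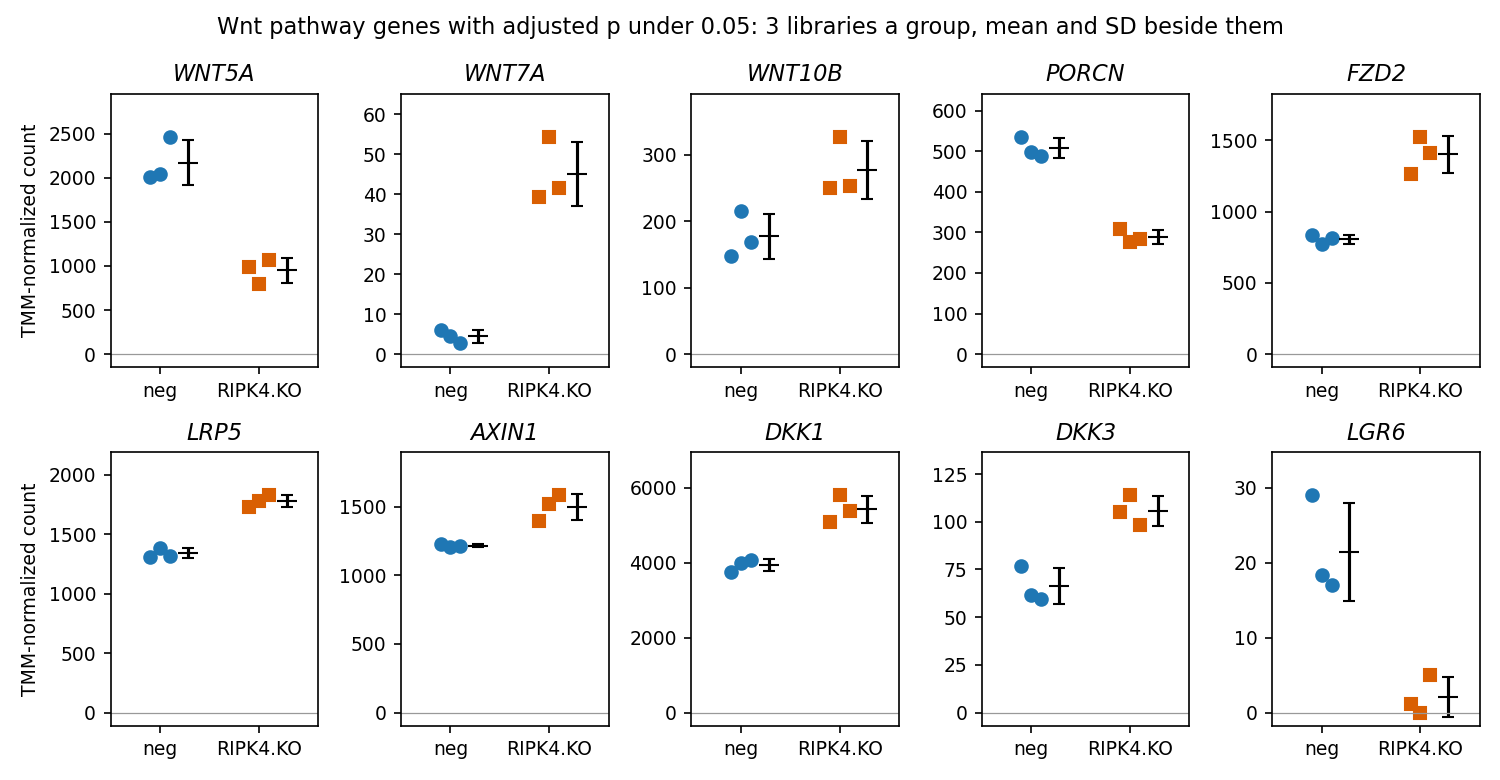
Normalized count (y axis, TMM-scaled, linear) of the 10 members with an adjusted p under 0.05, with 1 point for each of the 3 libraries of A375neg (blue circles) and A375RIPK4.KO (orange squares), and beside them the mean and SD. The groups are apart in every panel, and WNT7A and LGR6 have few counts in 1 of the groups.

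None of the 3 Dishevelled genes, whose proteins RIPK4 is described as acting on, was called. DVL1 had 2412, 2810 and 2715 raw counts in A375neg and 2521, 3044 and 2877 in A375RIPK4.KO, where the raw counts overlapped and the normalized counts did not. Its log2FC was 0.22 (approximate 95% interval 0.09 to 0.36, adjusted p = 0.0574). DVL2 stood at 0.08 (−0.06 to 0.21, adjusted p = 0.511) and DVL3 at −0.10 (−0.24 to 0.04, adjusted p = 0.409). These intervals exclude a 1.5-fold change of any of the 3 transcripts, taken 1 gene at a time. The adjusted p of DVL1 was under 0.05 in 4 alternatives, with DESeq2 (0.0342), with the replicate block (0.0329), with the trend of counts on gene length removed from every library (0.0427) and without A375RIPK4.KO replicate 1 (0.0381), and its log2FC over all 12 was 0.17 to 0.27. Per length, DVL1 was the most abundant, at 27 CPM per kilobase in A375neg and 31.5 in A375RIPK4.KO, and DVL2 and DVL3 were near each other, at 9.32 and 9.36 in A375neg. RNA counts carry no information on phosphorylation of these proteins.

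In the destruction complex, the scaffold AXIN1 had an adjusted p under 0.05 and no gene was called. AXIN1 had 1225, 1308 and 1283 raw counts in A375neg and 1278, 1452 and 1559 in A375RIPK4.KO, which is 1215 ± 9.97 (SD, n = 3) and 1498 ± 93.2 normalized counts (log2FC 0.30, SE 0.07, adjusted p = 0.0144). Its adjusted p was 0.0561 to 0.0657 without any 1 of the A375neg libraries or without A375RIPK4.KO replicate 3. The scaffold APC (log2FC 0.08, adjusted p = 0.492) and the kinase GSK3B (0.05, adjusted p = 0.702) were near 0. The kinase CSNK1A1 stood at 0.18 (SE 0.06, adjusted p = 0.0625), with groups that did not overlap. Its adjusted p was 0.0205 with DESeq2, 0.0466 with the length trend removed and 0.0275 without A375RIPK4.KO replicate 2, and above 0.05 in the other alternatives.

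CTNNB1, which encodes beta-catenin, had 6826, 7713 and 7997 raw counts in A375neg and 5503, 4224 and 6492 in A375RIPK4.KO. The A375RIPK4.KO libraries were lower and more spread than the A375neg libraries, with replicate 2 the lowest. The normalized count was 7170 ± 382 (SD, n = 3) and 5669 ± 1127 (log2FC −0.34, SE 0.13, adjusted p = 0.113). Without A375RIPK4.KO replicate 2 the log2FC was −0.18 (adjusted p = 0.0591). The adjusted p was 0.0376 with DESeq2 (log2FC −0.34) and 0.0476 with the replicate block (−0.36), both under the fold limit, and above 0.05 in the other 10 alternatives. A trend on gene length was taken from log2 CPM relative to each gene's mean over all libraries. In A375RIPK4.KO replicate 2 this relative level ran lower by 0.056 for each doubling of gene length. The slopes of the other libraries lay between −0.00212 and 0.0196. With the length trend removed from every library the log2FC of CTNNB1 was −0.33 (adjusted p = 0.0668).

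Among the TCF/LEF factors, which bind DNA for beta-catenin, no gene was called. TCF7L2, the most abundant per length, had 572, 662 and 638 raw counts in A375neg and 460, 266 and 459 in A375RIPK4.KO. Replicate 2 was again the lowest, and the groups did not overlap. Its log2FC was −0.52 (SE 0.19, adjusted p = 0.0943). It was −0.52 with DESeq2 (adjusted p = 0.0383), −0.30 (adjusted p = 0.0366) without A375RIPK4.KO replicate 2 and −0.68 (adjusted p = 0.0481, called) without replicate 1. TCF7 had 37, 19 and 28 raw counts in A375neg and 46, 46 and 51 in A375RIPK4.KO (log2FC 0.89, SE 0.30, adjusted p = 0.0804), and was called without A375neg replicate 1 (1.18, adjusted p = 0.0467). LEF1 had 245, 349 and 317 raw counts and 243, 193 and 237 (log2FC −0.29, SE 0.15, adjusted p = 0.240). TCF7L1 was rare, with 13 to 28 raw counts (0.47, adjusted p = 0.459).

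The feedback inhibitors are beta-catenin targets that dampen the signal, and none was called. AXIN2, the most widely used readout of canonical signalling, had only 5, 4 and 18 raw counts in A375neg and 10, 12 and 22 in A375RIPK4.KO. The groups overlapped, and the log2FC of 0.82 had an approximate 95% interval from −0.38 to 2.03 (adjusted p = 0.415). With all libraries kept, the interval excludes a 1.5-fold fall but neither no change nor a rise of that size. Whether that exclusion holds with a library left out was not tested. Without A375neg replicate 3, the highest of its group, the log2FC was 1.79 (adjusted p = 0.114), and over the single libraries left out it ran from 0.45 to 1.79. NKD1, which binds Dishevelled, had 43 to 47 raw counts in A375neg and 37 to 59 in A375RIPK4.KO (log2FC 0.22, adjusted p = 0.579). ZNRF3, a ligase that removes Frizzled from the surface, stood at 0.07 (adjusted p = 0.795) and changed sign without A375neg replicate 1 or A375RIPK4.KO replicate 3. RNF43 and NOTUM did not pass the filter, with at most 5 counts in any library.

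Further genes of the pathway were taken from 4 lists written from general knowledge, with earlier results of these data known. Nothing is therefore read from the difference between their shares of called genes and that of all genes. Of 31 other canonical genes, 2 were called (6.45%, beside the 9.04% of all genes tested), with a median log2FC of 0.00. With the replicate number as a block 3 were called, the gain being TNKS (log2FC −0.76, adjusted p = 0.247 without the block). KREMEN1, a receptor of DKK1, rose from 72.7 ± 7.81 (SD, n = 3) to 120.4 ± 20.7 normalized counts (log2FC 0.73, adjusted p = 0.0362). TLE4, a co-repressor of the TCF/LEF factors, fell from 2183 ± 85.6 (SD, n = 3) to 1390 ± 180 (log2FC −0.65, SE 0.09, adjusted p = 0.0013). The call of KREMEN1 was lost when any library other than A375RIPK4.KO replicate 2 was left out, and that of TLE4 without A375RIPK4.KO replicate 2, where its fold was under 1.5. The co-activators BCL9 (0.47) and PYGO1 (0.39) had adjusted p of 0.0033 and 0.0219 and were under the limit.

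Of 9 other secreted or surface modulators tested, 2 were called, both higher (22.2%, beside 9.04% of all genes tested and 4.39% higher), and the median log2FC was −0.06. GPC4, a heparan sulfate proteoglycan that binds Wnt ligands, had 29, 44 and 61 raw counts in A375neg and 126, 140 and 206 in A375RIPK4.KO (log2FC 1.95, SE 0.28, adjusted p = 0.0016). The groups did not overlap, though both were uneven. ADGRA2, a co-activator of WNT7A and WNT7B signalling with RECK, rose from 162.0 ± 5.84 (SD, n = 3) to 255.0 ± 18.9 normalized counts (log2FC 0.65, SE 0.13, adjusted p = 0.00852). Both were called in all 12 alternatives, though ADGRA2 was under 2-fold. SULF2, which edits heparan sulfate, and TSPAN12, a partner of FZD4, stood at 0.30 and −0.48 (adjusted p = 0.0111 and 0.0361).

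In the non-canonical branch, of 31 genes tested 3 were called (9.68%, beside 9.04% of all genes), 1 higher and 2 lower, with a median log2FC of 0.05. JUN, a transcription factor activated by JNK, had 920, 1001 and 932 raw counts in A375neg and 1760, 1938 and 2000 in A375RIPK4.KO (log2FC 1.13, SE 0.06, adjusted p = 4.79e-06). NFATC2, a calcium-regulated transcription factor, had 426, 404 and 454 raw counts in A375neg and 65, 57 and 76 in A375RIPK4.KO (log2FC −2.56, SE 0.15, adjusted p = 8.19e-06). Both were tight within groups and far apart between them, and were called in all 12 alternatives. CELSR3, a planar polarity cadherin, fell from 775 ± 14.2 (SD, n = 3) to 504 ± 95.2 normalized counts (log2FC −0.62, SE 0.13, adjusted p = 0.00951), and was −0.48, short of 1.5-fold, without A375RIPK4.KO replicate 2.

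The WNT5A co-receptors tested were not called, nor was any core planar polarity gene other than CELSR3. ROR1, a co-receptor of WNT5A, had 172 ± 24.8 (SD, n = 3) and 239 ± 41.2 normalized counts (log2FC 0.47, adjusted p = 0.105). RYK stood at 0.04 (adjusted p = 0.671), PTK7 at 0.08 (0.505) and VANGL1 at 0.03 (0.812). VANGL2 was rarer, at 50.6 ± 3.65 and 29.1 ± 8.94 normalized counts (log2FC −0.80, SE 0.29, adjusted p = 0.0961). ROR2 was not analysed here. Of the genes past the p-value threshold but under the fold limit, CAMK2D (0.44), CELSR1 (0.50) and PRICKLE1 (0.48) were higher. NLK, a kinase that acts on TCF/LEF factors, was lower and also under the limit (−0.55). It was called without A375RIPK4.KO replicate 3.

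Of 23 known beta-catenin targets tested, 6 were called, 2 higher and 4 lower (26.1%, beside 9.04% of all genes tested), and the median log2FC was 0.07. The 6 are not Wnt pathway genes by the naming rule, and they make up 6 of the 17 targets outside it. EDN1, a vasoactive peptide, had 55, 68 and 65 raw counts in A375neg and 205, 266 and 181 in A375RIPK4.KO (log2FC 1.93, SE 0.19, adjusted p = 0.000185). JAG1, a Notch ligand, had 1518, 1437 and 1615 raw counts and 3013, 2855 and 3758 (log2FC 1.21, SE 0.10, adjusted p = 5.79e-05). Both of these rose with no overlap between the groups.

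On the lower side, BAMBI, a decoy receptor of the TGF-beta family, had 606, 688 and 784 raw counts in A375neg and 186, 197 and 191 in A375RIPK4.KO (log2FC −1.72, SE 0.11, adjusted p = 1.07e-05). TNFRSF19 had 574, 552 and 636 raw counts and 206, 230 and 238 (log2FC −1.25, SE 0.10, adjusted p = 5.65e-05). ID2, a helix-loop-helix inhibitor, was rarer, with 56, 84 and 68 raw counts and 26, 36 and 29 (log2FC −1.05, SE 0.24, adjusted p = 0.0181). The groups did not overlap for any of these, and the fall of ID2 was not called without A375neg replicate 2 or 3, or A375RIPK4.KO replicate 1 or 3, while a mean of at least 50 counts removed the gene. EPHB3, the other called target, stood at −0.81 (adjusted p = 0.016) and was not called without A375neg replicate 1.

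MYC, CCND1 and MITF, fixed for naming, were not called. MYC stood at 0.25 (SE 0.09, adjusted p = 0.0865) and CCND1 at −0.11 (adjusted p = 0.500). MITF, the melanocyte lineage factor, had 500, 440 and 535 raw counts in A375neg and 326, 288 and 376 in A375RIPK4.KO (log2FC −0.44, SE 0.13, adjusted p = 0.0449), under the fold limit. With no limit on fold, 11 of the 23 targets had an adjusted p under 0.05, 5 higher and 6 lower, beside 16.6% of all genes tested (8.4% higher and 8.24% lower).

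**Figure D4:**
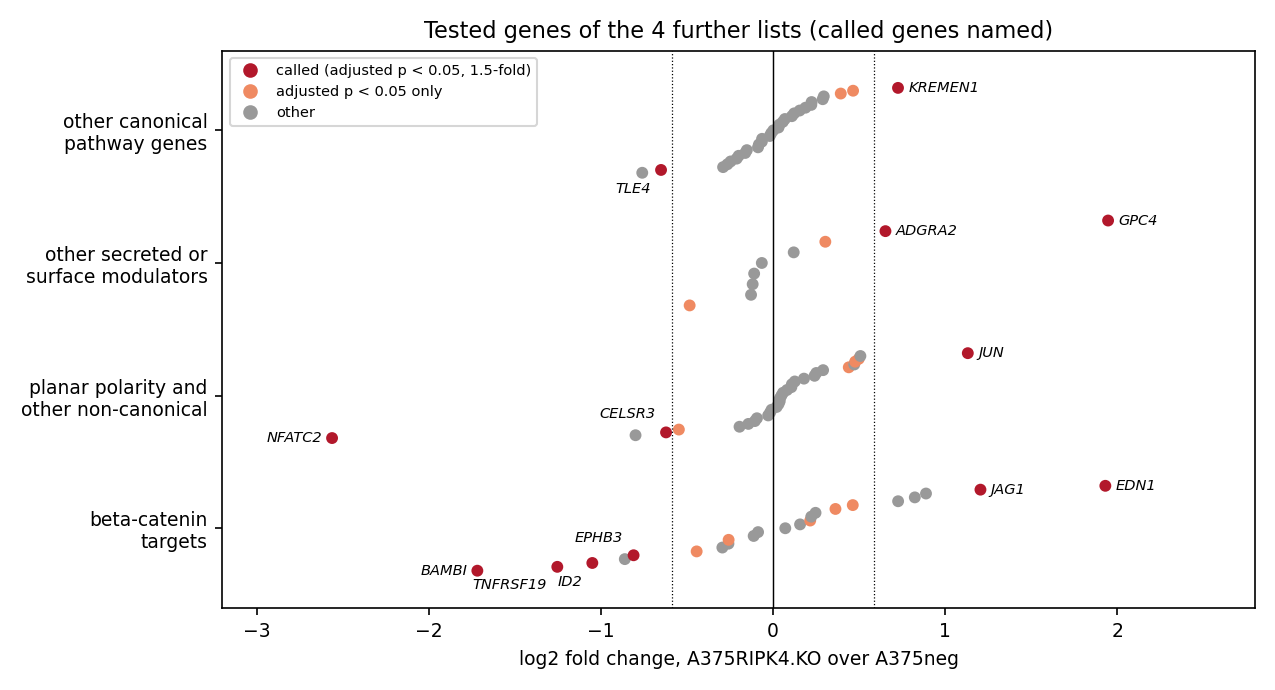
Log2FC (x axis, A375RIPK4.KO over A375neg) of every tested gene of the 4 further lists, 1 point a gene, ordered within its list, with dotted lines at 1.5-fold. The called genes are named, and each list has most of its points between the lines, while NFATC2 at −2.56, GPC4 at 1.95 and EDN1 at 1.93 lie farthest out.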

How the data were processed

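RNA was poly(A) enriched and sequenced as strand-specific paired-end libraries by an external provider. The submitters' processing notes list cutadapt, FastQC, HISAT2, HTSeq and DESeq2 and the build GRCh38.p13, without versions. The raw counts per gene were deposited by the authors as whole numbers and not normalized. The deposited table also holds a signal (counts scaled by a size factor for each library) and the authors' own DESeq2 comparison, with its fold ratio, log2 fold change, test score, error score and p-value. The scaled counts were used only to check the size factor of each library, and no column of the comparison was used.

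The raw counts were fitted with edgeR 4.0.16 under R 4.3.3. TMM factors and filterByExpr were used, followed by the quasi-likelihood test, and p-values were adjusted by Benjamini-Hochberg across the tested genes. The standard error is the log2 fold change divided by the square root of F. Normalized counts are raw counts divided by the relative TMM library size. Levels per length use GENCODE v29 exon lengths, or the table's exon where longer. Alternatives were DESeq2 1.42.0, its size factors, no filter, a mean of at least 50 counts, replicate block, gene length trend removed, each library left out, and a 2-fold limit. The steps were tested on simulated counts.

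The members and lists were chosen with earlier results of these data known. The changes of WNT5A and WNT7A were among those results and are not independent support. Named were every member called or with an adjusted p under 0.05, the most abundant member of each role, fixed core genes of the pathway whatever their test, and up to 5 called genes of each further list. The exceptions were named after their values were seen. They were WNT2B, WNT7B, FZD1, FZD5, FZD6, FZD7, FZD9, DKK2, SFRP1, SFRP5, NKD1, EPHB3 and the members that did not pass the filter. They also included the single genes of the marker lists, and the genes of the further lists that were neither called nor fixed for naming.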

Additional observations from a re-analysis of the deposited data

How the results depend on the processing

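WNT5A, FZD2, PORCN and RIPK4 kept their direction and call in all 12 alternatives at the 1.5-fold limit, and WNT7A in the 11 that kept it. For the 27 members named by the rule, the alternatives gave 319 results. Of these, 300 kept their direction and their call, 14 lost the call, 2 gained it and 3 changed sign. A call needs the adjusted p and the 1.5-fold limit together. A member not called in the main fit kept its call by staying uncalled, so the 300 do not measure how well calls held. The 14 losses were of DKK3 (called in 4 of 12 alternatives), WNT10B (7 of 12) and LGR6 (10 of 11). Of the 300, 16 crossed an adjusted p of 0.05 at a fold under the limit, 12 to below it (CSNK1A1, CTNNB1, DVL1, LGR4 and TCF7L2) and 4 to above it (AXIN1). A fold limit of 2 left 3 members called (WNT5A, WNT7A and LGR6), beside 5.49% of all genes tested. With single libraries left out, 5 to 6 members were called and 7 to 11 had an adjusted p under 0.05, and 1 other canonical gene was called in each case. The log2 fold changes of ZNRF3 then ran from −0.019 to 0.23 and of GSK3B from −0.0069 to 0.11, changing sign. DKK3 was not called with DESeq2, where the adjusted p was 0.0537, with every listed gene tested (0.063), or with the replicate block (0.0553), at a log2 fold change of 0.68 each time. The cause of these changes was not tested. DESeq2 gave 6 members called and 14 with an adjusted p under 0.05. The replicate numbers do not pair the libraries by the labels. For a look at pairing, each gene's group mean was first subtracted from its log2 CPM. These remainders correlated across the groups at 0.082, 0.036 and −0.012 between same-numbered libraries, and at −0.096 to 0.067 between the others. With the replicate number as a block, 6 members were called, 12 had an adjusted p under 0.05, and the call of DKK3 was lost. The log2 fold change of AXIN2 was 1.79 without A375neg replicate 3. Low counts limit AXIN2, WNT7A, WNT7B, DKK2, LGR6 and the 11 members not tested.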
